A study of Mus musculus with 4 samples.

Results

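The cytosolic ribosomal protein genes were taken from the gene tables by symbol: Rps or Rpl followed by a digit, Rpsa, Rplp0, Rplp1 and Rplp2, without symbols marked as pseudogenes and without the Rps6k kinases. The rule gave 86 of 32285 genes, of which 33 encode proteins of the small ribosomal subunit and 52 proteins of the large subunit, while Rps19bp1 is taken in by its name and encodes a nucleolar protein that binds the small-subunit protein Rps19. Of the 86, 83 had a mean of at least 5 CPM (counts scaled to a common library total) in T cells and 82 of at least 50 CPM. The other 3 are copies of ubiquitous members: Rpl10l had no unique molecular identifier (UMI, 1 counted transcript) in any library, Rpl3l stood at most at 0.0481 CPM, and Rpl39l lay between 0.481 and 0.723 CPM. Fau, whose product holds a ribosomal protein fused to a ubiquitin-like one, has another symbol and is not a member. It stood between 7210 and 7535 CPM.

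The cells were live T cells sorted from tumour-draining lymph nodes after mice had received MC38-OVA cells, a colon carcinoma line that expresses ovalbumin. There were 4 libraries, 1 for each group: WT-CTRL (genotype labelled Control, control treatment), WT-DOX (genotype labelled Control, doxorubicin), KO-CTRL (PD-L1 knockout, control treatment) and KO-DOX (PD-L1 knockout, doxorubicin). The knockout is conditional to dendritic cells, all mice carried tumours, and the Cre driver, the strain, the age, the dose and the number of mice behind a library were not stated in the sources used. Doxorubicin is an anthracycline that damages DNA.

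Each ribosome is built from one copy of nearly every ribosomal protein, so cells that grow make these proteins together. Many of their mRNAs start with a C followed by a run of pyrimidines, the 5' terminal oligopyrimidine tract, through which mTOR signalling controls their translation. In T cells, ribosome production rises on activation and before division, and a few members have a second gene copy whose product can take the place of the first.

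The start sites of 8 members are shown, because the results turn on short members and on members with a second copy. Each sequence has 40 bases before and 20 bases from the RefSeq transcript start (GRCm38.p6), and capitals mark the pyrimidine tract where the first transcribed base is C and opens an unbroken run of at least 5 pyrimidines, searched on the gene's strand only. The windows lie at chr3:90213629-90213688 on the minus strand (Rps27), chr9:114982720-114982779 on the minus strand (Rps27rt), chr9:66946046-66946105 on the plus strand (Rps27l), chr11:114668540-114668599 on the plus strand (Rpl38), chr17:33824543-33824602 on the minus strand (Rps28), chr2:180257339-180257398 on the plus strand (Rps21), chr4:152325686-152325745 on the plus strand (Rpl22) and chr3:28805468-28805527 on the plus strand (Rpl22l1).
Rps27: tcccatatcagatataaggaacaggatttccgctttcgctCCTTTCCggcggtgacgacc
Rps27rt: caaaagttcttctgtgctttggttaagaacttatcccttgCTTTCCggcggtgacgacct
Rps27l: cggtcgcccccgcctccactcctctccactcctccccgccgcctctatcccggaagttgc
Rpl38: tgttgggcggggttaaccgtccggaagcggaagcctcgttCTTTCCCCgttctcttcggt
Rps28: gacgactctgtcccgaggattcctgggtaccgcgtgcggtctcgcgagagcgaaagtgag
Rps21: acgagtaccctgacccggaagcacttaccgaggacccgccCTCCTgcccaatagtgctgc
Rpl22: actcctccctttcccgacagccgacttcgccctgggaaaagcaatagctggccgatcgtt
Rpl22l1: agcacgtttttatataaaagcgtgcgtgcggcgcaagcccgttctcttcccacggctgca
Rps27 and Rps27rt carry the tract and share the bases after it, while Rps27l, Rps28, Rpl22 and Rpl22l1 have no tract at exactly this base. Rps21, Rps27l and Rpl22 each have a further RefSeq start site that is not shown and has no tract. Of 78 RefSeq start sites of 66 members, 14 (17.9%) had such a tract on the gene's own strand, against 2.47% of 32773 start sites of other genes. The tract is read only at the annotated first base, so an annotation that is off by a few bases hides it.

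The libraries held 10372 to 12959 barcodes and 37754389 to 47081849 UMIs, and 9774 to 12323 cells in each passed as T cells with a median of 2980.5 to 3067 UMIs. Of 47299 distinct barcodes, 1283 occurred in more than 1 library. WT-DOX stood apart from the others: Zbed5 was at 260 CPM there and at 0.828 to 1.02 CPM elsewhere, and by a size of 0.32 log2 units 264 of 8963 genes were lower in it than in WT-CTRL and 317 higher in KO-DOX than in it, against 64 to 130 in either direction for KO-CTRL against WT-CTRL and 79 to 83 for KO-DOX against KO-CTRL. Cd274, which encodes PD-L1, was at 67.6 (control) and 66.95 CPM (doxorubicin) in T cells of the WT libraries. It was at 86.5 and 85.5 CPM in T cells of the KO libraries. Levels in T cells do not check the genotype label, because the deletion is conditional to dendritic cells. With 1 library in a group, no difference between libraries can be set against the spread between mice, and the intervals given cover counting error only.

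Ribosomal protein genes took between 27.3% and 28.7% of all T cell UMIs. The share was 27.5% in WT-CTRL, with a 95% Clopper-Pearson interval of 27.50% to 27.53%, and 28.7% in WT-DOX. It was 27.3% in the KO-CTRL library and 28.1% in KO-DOX. Both doxorubicin libraries lay above the control library of the same genotype, by 1.20 percentage points in WT and 0.751 points in KO. Small-subunit genes made up 44.8% to 45.2% of the ribosomal protein UMIs in the 4 libraries. In sums over all T cells a change in the mix of cells and a change of level per cell cannot be told apart. Between WT-DOX and WT-CTRL the median log2 fold of CPM + 1 was 0.0762 for the 49 large-subunit members at 5 CPM or more and 0.122 for the 33 small-subunit members, against -0.01 for all 8963 genes at that level.

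Cells were then gated by marker UMIs into naive CD4, naive CD8, effector CD8, Foxp3-positive and cycling cells, which held 1005 to 1550, 774 to 1083, 2220 to 2785, 123 to 176 and 129 to 205 cells in a library. Markers that no gate uses matched the names of the Foxp3-positive and the cycling gate. Il2ra stood at 473 CPM and Ctla4 at 1028 CPM in Foxp3-positive cells, against 7.49 and 71.4 CPM in naive CD4 cells, and Hmgb2 at 3041 CPM and Pcna at 306 CPM in cycling cells, against 185 and 94.7 CPM. The naive gates were set by their own markers, so the levels of those do not check the names; Cd44, which they do not use, stood at 22.4 CPM in naive CD4 and 10.8 CPM in naive CD8 cells against 44.1 CPM in all T cells. The effector CD8 gate, at least 2 UMIs over 6 genes of cytotoxic and chemokine function, went against its name. It took in 19.6% to 23.5% of the T cells, Nkg7 at 886 CPM outweighed Ccl5 at 326 CPM, and the naive markers Ccr7 and Lef1 stood at 652 and 701 CPM, close to the 700.2 and 821 CPM of naive CD8 cells. It is therefore called the effector-rule gate, and beside it stands a narrower gate of CD8 cells with at least 2 UMIs of the chemokine gene Ccl5, chosen after the data were seen, with 224 to 268 cells in a library, Ccl5 at 2788 CPM, Cd44 at 80.5 CPM and Lef1 at 454 CPM.

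**Figure D1:**
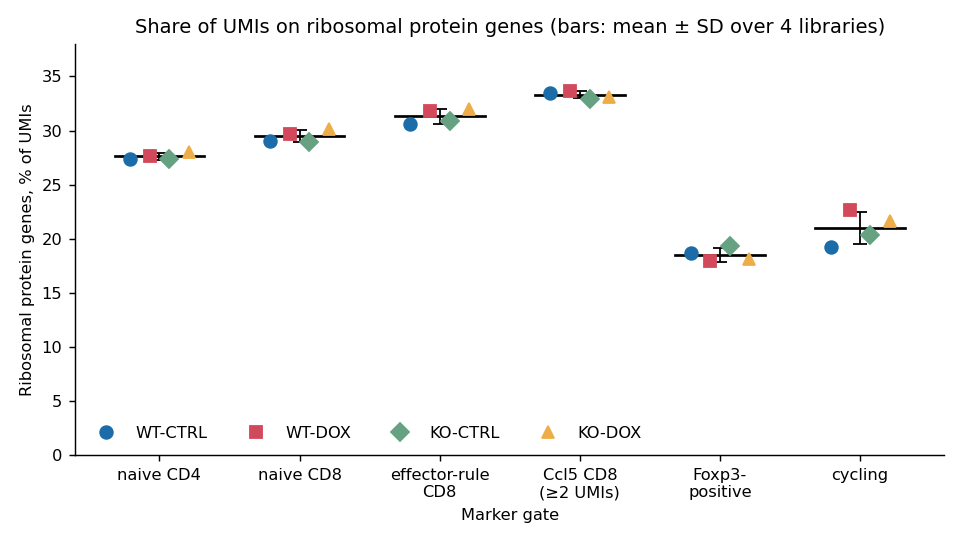
Share of UMIs on the 86 ribosomal protein genes (vertical axis, percent) in each marker gate (horizontal axis); points are libraries, lines and error bars the mean ± SD over 4 libraries. Foxp3-positive and cycling cells lie below 23% in every library, and the CD8 gates above 28%.

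The ribosomal share differed more between gates than between libraries. It was 27.6% ± 0.292 (SD, n = 4 libraries) in naive CD4 cells, 29.5% ± 0.557 in naive CD8 cells and 31.3% ± 0.688 in effector-rule CD8 cells. In the Ccl5 gate it lay between 32.9% (KO-CTRL) and 33.7% (WT-DOX). Foxp3-positive cells had 18.5% ± 0.617 and cycling cells 20.97% ± 1.48. The order from Foxp3-positive cells up to naive CD4 cells was therefore wider than the spread over libraries, and the 4 libraries of the Foxp3-positive gate (17.9% to 19.3%) did not overlap those of the naive CD4 gate (27.4% to 28.0%).

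Within each library the share was lower in Foxp3-positive than in naive CD4 cells, with a mean difference of -9.11 ± 0.844 percentage points. It was higher in naive CD8 than in naive CD4 cells by 1.85 ± 0.276 points and in effector-rule than in naive CD8 cells by 1.85 ± 0.280 points, and lower in cycling cells than in the mean of the other gates, at -5.76 ± 1.31 points. Each difference had the same sign in 4 of 4 libraries, with an exact two-sided sign-flip permutation p of 0.12, the smallest that 4 libraries can give. Cells within a gate varied widely: in the WT-CTRL library the central 90% of naive CD4 cells reached from 17.003% to 35.7%, and of Foxp3-positive cells from 8.59% to 29.2%. A share says nothing of the total, so fewer ribosomal protein transcripts and more transcripts of other genes cannot be told apart.

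Depth and other cell types also differed between the gates. Median UMIs were 2764 to 2979.5 in naive CD4 cells, 3311.5 to 3508 in Foxp3-positive cells, 3827 to 3952 in effector-rule cells and 9735 to 10870 in cycling cells. When only cells of 2000 to 4000 UMIs were kept, the differences were -9.72 points for Foxp3-positive cells, 1.89 for naive CD8, 1.20 for effector-rule cells and -8.54 for cycling cells, the last from 12 to 23 cycling cells in a library. A list of 7 B cell genes summed to 468 to 558 CPM in Foxp3-positive cells against 153 to 164 CPM in naive CD4 cells, with 2 to 4 of the 7 above 0 and Igkc at 0 in every library, and a list of 7 dendritic or myeloid genes to 357 to 553 against 63.3 to 74.7 CPM, with 2 to 3 above 0 and Lyz2, Csf1r, Itgax and Siglech at 0 in every library. The part of these transcripts in the lower share was not tested.

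Foxp3-positive cells, the regulatory T cell compartment by its defining transcription factor, had lower levels of nearly every ribosomal protein gene than naive CD4 cells. Of 83 members tested by edgeR's quasi-likelihood test over the 20 sums of UMIs by library and gate, with library as a block and Benjamini-Hochberg adjustment over 10418 genes, 80 fell and 1 rose, against 21.2% of all genes lower and 17.6% higher. The members' median log2 fold change was -0.73 and that of all genes -0.07. Scaling by total UMIs in place of TMM moved the median of all genes to 0.18 and the split of all calls from 1835 higher and 2205 lower to 3020 and 1087, but it left the members 0.65 below the median of all genes and their counts at 80 and 1.

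The largest falls were in small-subunit members. Rps27, a zinc-binding protein of the small subunit, was at 2539, 2000.1, 2558 and 2218 CPM in Foxp3-positive cells (in the order WT-CTRL, WT-DOX, then KO-CTRL, KO-DOX, kept wherever 4 values follow), against 4867, 3870.0, 4467 and 4415 CPM in naive CD4 cells. The 2 gates did not overlap, and Rps27 fell by 1.17 on the log2 scale (SE 0.0492, adjusted p 3.85e-22). Rps24, mutated in some families with the red cell disorder Diamond-Blackfan anaemia, was at 7063, 7428, 7621 and 6643 CPM against 12987, 14154, 13278 and 13634 CPM, and fell by 1.16 (SE 0.0502). Rps20 fell by 1.13 and Rps29, another zinc-binding small-subunit protein, by 1.13, each likewise lower in all 4 libraries. The falls were not uniform: the central 80% of members lay between -1.04 and -0.52, and among the members that fell Rpl27 moved least, by -0.36.

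A single member went the other way. Rps27l, a copy of Rps27 that is known as a p53 target, was at 80.6, 82.4, 86.5 and 130.5 CPM in Foxp3-positive cells and at 42.7, 49.96, 34.4 and 51.6 CPM in naive CD4 cells. Every Foxp3-positive library lay above every naive CD4 library, and the log2 fold change was 0.84 (SE 0.147, adjusted p 1.04e-05 by edgeR). Among cells of 2000 to 4000 UMIs it was 0.50 with an adjusted p of 0.109. Rpl7l1, a copy of Rpl7 (-0.29, adjusted p 0.0623), and Rps19bp1 (-0.26, adjusted p 0.264) did not pass the threshold.

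Other genes of protein synthesis were counted by lists. Of 36 translation factors and related genes tested, 17 fell and 4 rose in Foxp3-positive cells, with Rack1, the scaffold protein of the small subunit, at -0.78 and Eef1b2, an elongation factor subunit, at -0.74. Of 49 genes of ribosome assembly and rRNA synthesis, 22 fell and 2 rose; the 2 were Myc, a transcription factor that drives ribosome production (1.03), and Nop16 (0.49). Of 78 mitochondrial ribosomal protein genes, 24 fell and 4 rose. Over all genes 21.2% fell and 17.6% rose, and the falls in the mitochondrial list were not far from that share. The medians were -0.19, -0.34 and -0.12, each less negative than the -0.73 of the cytosolic members.

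**Figure D2:**
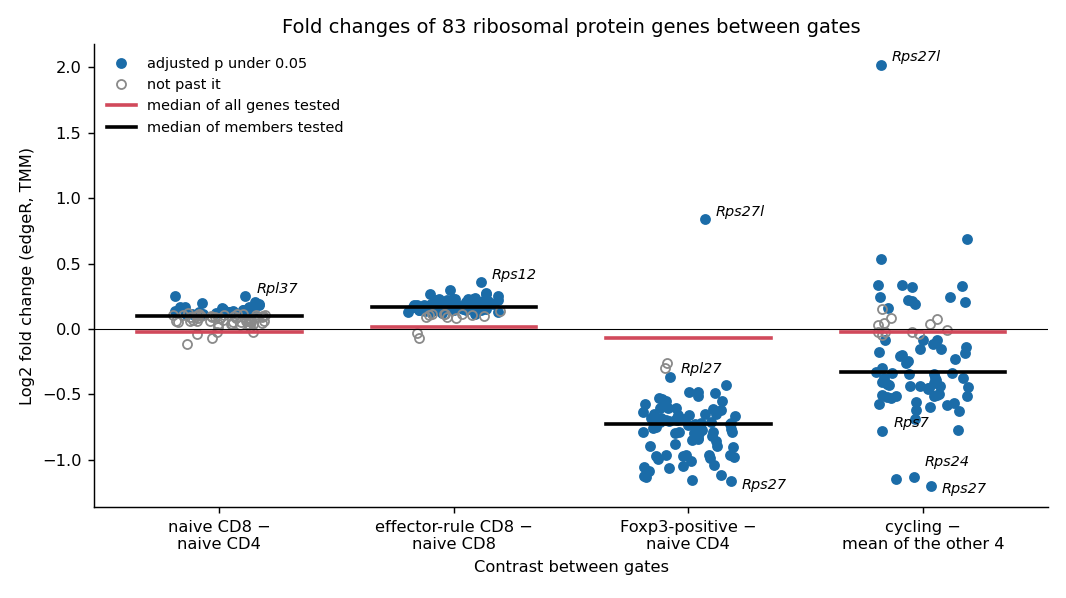
Log2 fold change (vertical axis) of each of 83 members in 4 contrasts between gates (horizontal axis), filled where the adjusted p was under 0.05; black lines are medians of the members and red lines medians of all genes tested. In Foxp3-positive cells all members but Rps27l lie below 0, while cycling cells spread them from -1.20 to 2.02.

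In cycling cells members moved in both directions. Against the mean of the other 4 gates 57 members fell and 14 rose, while 34.2% of all genes were lower and 35.8% higher. The members' median was -0.33, and the central 80% lay between -0.59 and 0.24. Leaving out each library in turn gave 53 to 59 members lower and 14 to 17 higher. In those fits 31.0% to 32.4% of all genes were lower and 33.7% to 34.4% higher.

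Rps27 and Rps24 were among the lowest here too. Rps27 was at 1708, 1671, 1693 and 1644 CPM in cycling cells and fell by 1.20 (SE 0.0394), and Rps24 was at 5028, 6289, 5150 and 5734 CPM and fell by 1.13 (SE 0.0415). Rps27rt fell by 1.15, and Rps7, a small-subunit protein that can bind the p53 inhibitor Mdm2, by 0.78. All 4 cycling values of Rps27 lay below its lowest value in any other gate, 2000.1 CPM in Foxp3-positive cells.

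The high end was led by Rps27l. Its level was 179, 233, 202 and 257 CPM in cycling cells, against 37.1 to 43.5 CPM in naive CD8 cells, and the log2 fold change was 2.02 (SE 0.0644, adjusted p 2.63e-27 by edgeR). All 4 cycling libraries lay above all libraries of every other gate. Rps19bp1 rose by 0.53, Rpl22l1 by 0.34, Rps12 by 0.34 and Rpl41, the member with the shortest coding part, by 0.33. In the 12 to 23 cycling cells of a library that held 2000 to 4000 UMIs, none of the 83 members rose and 79 fell by edgeR. Of all genes 4.57% were higher and 6.17% lower in those cells. There Rps27l was at 0.30 (adjusted p 0.722), and Rps12 (-0.48), Rpl22l1 (-0.37) and Rps19bp1 (-0.04) had the opposite sign.

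The neighbouring lists moved otherwise in cycling cells. Of the 78 mitochondrial ribosomal protein genes 69 rose and 3 fell, with a median of 0.59. Of the translation factors 23 rose and 8 fell, and of the assembly genes 24 rose and 11 fell. Over all genes 35.8% were higher and 34.2% lower. These list counts cover cells of all depths, and none is given for the depth band. Nuclear Malat1 stood at 3056 to 3564 CPM in cycling cells against 11259 to 14184 CPM in naive CD4 cells, and its part in the differences was not tested. The B cell list summed to 200.02 to 239 CPM in cycling cells, with 2 to 4 of 7 genes above 0 and Igkc at 0 in every library, and the dendritic or myeloid list to 179 to 430.2 CPM, with 3 to 5 of 7 above 0 and Csf1r and Siglech at 0 in every library. Both lie above naive CD4 cells, and their part was not tested either.

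Among CD8 cells the levels of most members rose by small amounts with the effector rule. Of 83 members 70 rose and none fell relative to naive CD8 cells, against 8.88% of all genes higher and 3.11% lower, with a median of 0.17 for the members and 0.02 for all genes. Rps12, a small-subunit protein, was at 3256, 3488, 3044 and 3349 CPM in effector-rule cells and at 2661, 2869, 2540 and 2745 CPM in naive CD8 cells, and rose by 0.36 (SE 0.0434, adjusted p 9.42e-08 by edgeR). Rpl39, a small protein at the exit tunnel of the large subunit, rose by 0.30, Rps27l by 0.28 and Rpl32 by 0.27. The lists gave 14 translation factors higher and 1 lower, 3 assembly genes higher and 2 lower, and 23 mitochondrial ribosomal protein genes higher and none lower.

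The count of 70 depended on depth and scaling. It was 2 among cells of 2000 to 4000 UMIs, against 2.60% of all genes higher, so there it lay near the share over all genes. The members' median in those cells was 0.09. The count was 30, against 4.83% of all genes, when sums were scaled to total UMIs. That scaling turned the split of all calls from 925 higher and 324 lower to 503 and 915. Without the library block the count was 25, against 4.71% of all genes, and without the KO-DOX library 43, against 6.33%. With the sums scaled to UMIs outside the members it was 48, with 669 of all genes higher and 571 lower. In the Ccl5 gate 78 members rose and none fell, against 14.1% of all genes higher and 10.1% lower. The members' median was 0.34, and 51 rose among cells of 2000 to 4000 UMIs, against 12.5% of all genes higher. There Rps12 rose by 0.68, Rpl39 by 0.61 and Rpl32 by 0.52, each higher than in naive CD8 cells in 4 of 4 libraries.

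Naive CD8 and naive CD4 cells differed by small amounts in these genes. Of 83 members 29 were higher in naive CD8 than in naive CD4 cells and none lower, against 9.94% of all genes higher and 13.4% lower. Rpl37, a zinc-binding protein of the large subunit, was at 4404, 3728, 4326 and 4316 CPM against 3714, 3179, 3685 and 3674 CPM, and rose by 0.25 (SE 0.0454, adjusted p 4.03e-05 by edgeR). Rpl18 rose by 0.25, Rps18 by 0.21 and Rpl13 by 0.20. A fit of these 2 gates alone gave 75 higher and 1 lower, against 14.1% and 13.9% of all genes. The count of higher members was 8 without the library block, against 7.75% of all genes, so there it lay near that share. Without the KO-DOX library it was 11, against 7.90% of all genes, and without the KO-CTRL library 17, against 7.58%.

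Members with a second copy showed how unlike such copies can be. Rps27l stood at 1.03 ± 0.244 UMIs for each 100 of Rps27 in naive CD4 cells and 0.903 ± 0.0916 in naive CD8 cells (SD, n = 4), at 4.14 ± 1.23 in Foxp3-positive cells and at 13.0 ± 2.26 in cycling cells. The 4 cycling libraries (10.5 to 15.7) and the 4 Foxp3-positive libraries (3.17 to 5.88) overlapped neither each other nor the naive gates. Rpl22l1, a copy of Rpl22 that is needed for alpha beta T cell development, stood at 24.9 ± 1.61 for each 100 of Rpl22 in naive CD4 cells, 25.7 ± 1.82 in naive CD8 cells and 37.02 ± 1.39 in cycling cells. Its 4 cycling values, 35.3 to 38.6, lay above every value of the other gates. Both ratios were taken over cells of all depths. That of Rps27l also carries the lower level of its partner Rps27 in Foxp3-positive and cycling cells. Rpl36al stood between 34.9 and 48.4 for each 100 of Rpl36a and Rpl7l1 between 4.94 and 7.58 for each 100 of Rpl7 as means of the 5 gates, highest in Foxp3-positive cells for both.

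**Figure D3:**
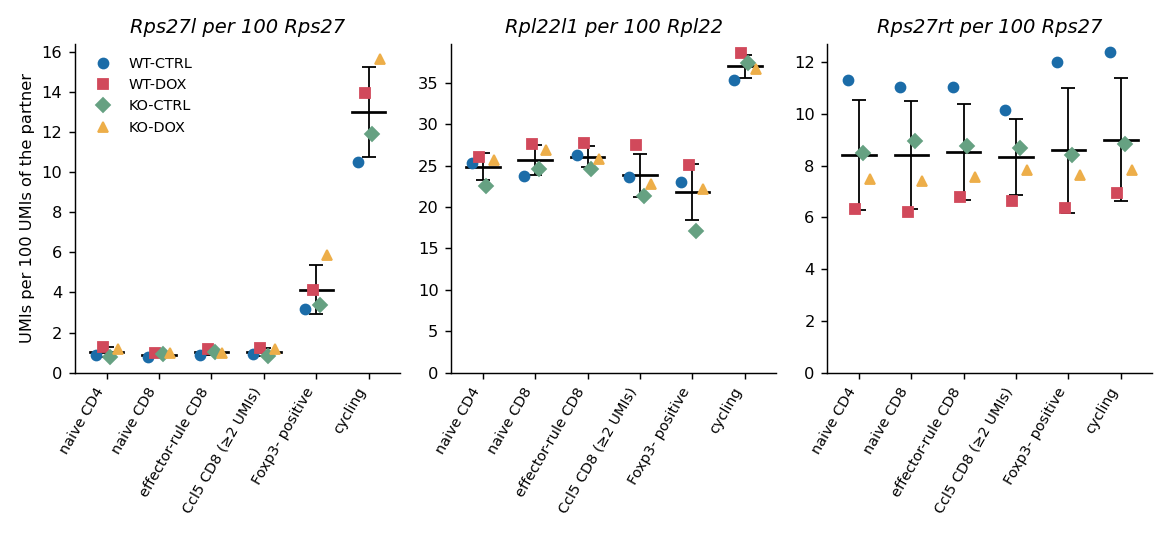
UMIs of a copy for each 100 UMIs of its partner (vertical axes) by gate (horizontal axes); points are libraries, lines and error bars the mean ± SD over 4 libraries. Over cells of all depths, Rps27l and Rpl22l1 are highest in cycling cells, whereas the Rps27rt ratio keeps its order of libraries in every gate.

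Rps27rt was unlike these, since its ratio followed the library and not the gate. For each 100 of Rps27 it was 11.1 (control) and 6.59 (doxorubicin) in the WT libraries and 8.69 and 7.57 in the KO libraries, and its means over libraries lay between 8.40 and 8.999 in the 5 gates. Rps27rt lies in 1 exon at chr9:114982366-114982739 on the minus strand (GENCODE M21, GRCm38), and its 255 coding bases are 100% identical to those of Rps27, which has 4 exons at chr3:90212671-90213651 on the minus strand. Rps27l, with 4 exons at chr9:66946086-66949512 on the plus strand, matches Rps27 at 77.1% of aligned coding positions, and Rpl22l1 matches Rpl22 at 69.3%. How the counting divided reads that match several copies was not stated in the sources used, so the levels of Rps27rt and Rps27 are uncertain against each other, and reads of processed pseudogenes may be shared with other members in the same way.

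**Figure D4:**
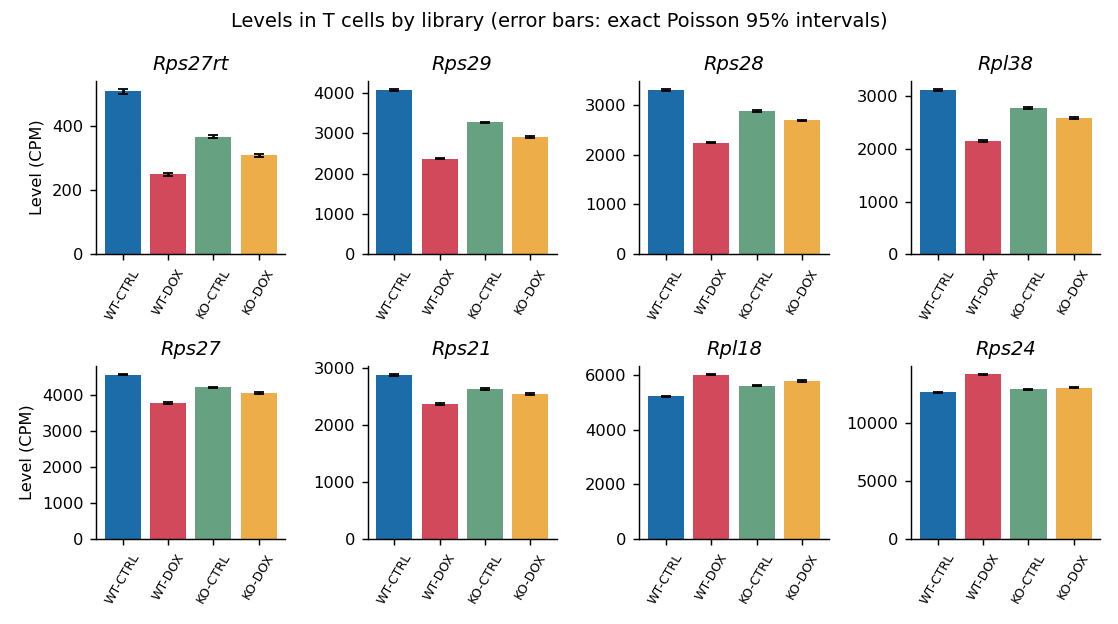
Level (CPM, vertical axes from 0) of 8 members in T cells of the 4 libraries (horizontal axes), with exact Poisson 95% intervals. Rps27rt, Rps29, Rps28 and Rpl38 are highest in WT-CTRL and lowest in WT-DOX, and Rpl18 and Rps24 have the reverse order.

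Between libraries a few very short members set themselves apart. Rps27rt was at 507 CPM in WT-CTRL and 249 in WT-DOX, and at 366 and 307 CPM in KO-CTRL and KO-DOX. Rps29 was at 4069.9, 2366, 3271 and 2907 CPM, with 95% Poisson intervals of 2351 to 2381 CPM in WT-DOX and 2888 to 2925 CPM in KO-DOX. Rps28, a small-subunit protein, was at 3297, 2242, 2877 and 2688 CPM, and Rpl38, a large-subunit protein needed for translation of Hox mRNAs in the mouse embryo, at 3118, 2153, 2780 and 2592 CPM. All 4 were highest in WT-CTRL and lowest in WT-DOX, with both KO libraries between.

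By the size rule of 0.32 log2 units, 4 of the 83 members were lower in WT-DOX than in WT-CTRL and none higher, against 2.95% of all genes lower and 0.636% higher, so the count itself lies near the share over all genes. The log2 folds were -1.02 for Rps27rt, -0.78 for Rps29, -0.56 for Rps28 and -0.53 for Rpl38, and the next lowest member, Rpl6, lay at -0.29. Between KO-DOX and KO-CTRL no member passed the size in either direction, against 0.881% of all genes lower and 0.926% higher, and the same 4 had log2 folds of -0.25, -0.17, -0.10 and -0.10. Between the control libraries Rps27rt was lower in KO-CTRL (-0.47) and no member was higher, against 0.714% and 1.45% of all genes, while Rps29 at -0.32 lay just inside the limit. Between the doxorubicin libraries no member passed the size, against 3.54% of all genes higher and 0.948% lower, and the same 4 lay at 0.30, 0.30, 0.26 and 0.27. Comparisons that share a library are not independent of each other.

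The difference was present in every gate. In WT-DOX against WT-CTRL, Rps27rt lay between -1.25 and -0.86 over the 5 gates, Rps29 between -0.85 and -0.52, Rps28 between -0.73 and -0.32 and Rpl38 between -0.64 and -0.35. In KO-DOX against KO-CTRL all 4 were below 0 in 5 of 5 gates as well, with the lowest value at -0.34.

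The members were also read by the order of their levels in the 4 libraries. WT-CTRL above KO-CTRL above KO-DOX above WT-DOX was the order of 10 members, Rpl37a, Rps21, Rps27, Rpl6, Rps27rt, Rpl38, Rps29, Rpl37, Rps28 and Rpl39, and of 8.84% of 3043 other genes at 50 CPM or more, so this order was not far from its share over other genes. The exact reverse was the most common order, held by 30 members against 4.70% of the other genes. Next came WT-DOX above KO-DOX above WT-CTRL above KO-CTRL, with 22 members against 3.15% of the other genes. Among the 30 were Rpl18, at 5216, 6013, 5605 and 5786 CPM, and Rps24, at 12592, 14137, 12870 and 13006 CPM. Rpl18 (0.20) and Rps20 (0.17) were among the highest members of WT-DOX against WT-CTRL, and no member passed 0.32 in that direction.

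Of the 10 members in the order WT-CTRL above KO-CTRL above KO-DOX above WT-DOX, all but Rpl6 have a short coding part, which the symbol rule did not use. Rpl41 and Rpl24 were also highest in WT-CTRL and lowest in WT-DOX, but with KO-DOX above KO-CTRL. Rpl24 has 474 coding bases and lay at -0.06 in WT-DOX against WT-CTRL. Of the 11 members at 50 CPM or more with under 300 coding bases, 10 lay below 0 in WT-DOX against WT-CTRL, their median at -0.27. In KO-DOX against KO-CTRL 9 did, their median at -0.05, and in KO-CTRL against WT-CTRL 10, at -0.11. The 48 members of 300 to 599 coding bases had a median of 0.10 in WT-DOX against WT-CTRL and the 23 longer ones of 0.12. Rps29 has 171 coding bases, Rps28 210, Rpl38 213 and Rps27rt 255. The relation had exceptions: Rpl6 with 891 bases was among the 10, Rpl41 with the shortest coding part (78 bases) lay at -0.09, and Rps27l with 255 bases was the only one of the 11 above 0.

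Other short genes did not share it. Of 119 other genes with under 300 coding bases at 50 CPM or more, the median was 0.05 and 40 lay below 0. Across the 82 members, which share the libraries and their depth, Spearman's rho between coding length and the log2 fold of WT-DOX against WT-CTRL was 0.46 and Pearson's r 0.38, and rho with whole transcript length was 0.36. In KO-DOX against KO-CTRL they were 0.42, 0.35 and 0.06. Against naive CD4 cells, Foxp3-positive cells had a median log2 fold change of -0.79 over the 11 short members and -0.73 over the 71 others. Malat1 in T cells, a nuclear RNA, stood at 12490, 9617, 11713 and 10114 CPM, the same order of libraries as the 10 members, and mitochondrial transcripts had a median of 0.0643%, 0.0567%, 0.0608% and 0.0326% of a cell's UMIs; the part of either in these differences was not tested.

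**Figure D5:**
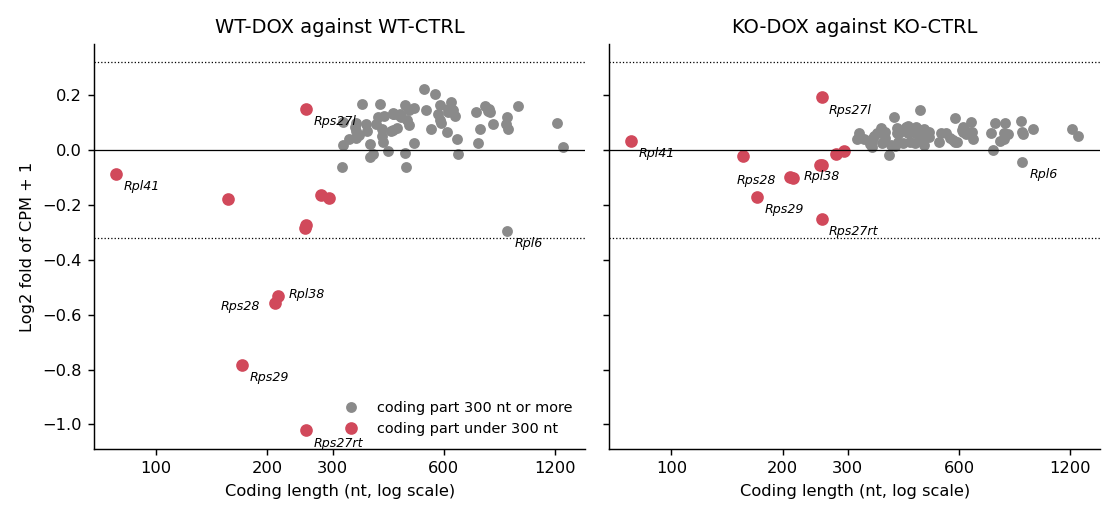
Log2 fold of CPM + 1 (vertical axes) against coding length in nucleotides (horizontal axes, log scale) for 82 members, for doxorubicin against control in each genotype; dotted lines mark 0.32. Red points have under 300 coding bases, and 4 of them lie below the lower dotted line in WT and none in KO.

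As parts of the ribosomal protein total, members differed less between libraries than between gates. The range over the 4 libraries had a median of 0.0800 log2 units over 82 members and the range over the means of the 5 gates a median of 0.290. Rps27l (2.91), Rps27 (0.987) and Rps24 (0.894) were among the widest over gates. For 11 members the range over libraries was the wider one; these were Rps27rt (1.09 against 0.889), Rps29 (0.844 against 0.307), Rpl38, Rps21, Rpl6, Rpl39, Rps28, Rps4x, Rpl37a, Rps27a and Rps3. In the other lists few genes passed 0.32 between libraries: none of 36 translation factors in the 4 comparisons, 1 higher and 1 lower of 49 assembly genes (Polr1e and Wdr43) and 2 lower of 78 mitochondrial ribosomal protein genes (Mrpl19 and Mrpl48), all in WT-DOX against WT-CTRL. Over all genes 2.95% were lower and 0.636% higher in that comparison, so the counts in these lists lay near the share over all genes.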

How the data were processed

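The authors deposited UMI counts by gene and barcode, made with a droplet 5' kit per the labels' protocols and on mm10 per the submitters' processing notes. Aligner, cell calling and treatment of multi-mapping reads: not given in the sources used here.

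Kept barcodes had 300 or more genes and no more than 10% mitochondrial UMIs. T cells and 5 exclusive gates were set by marker UMIs, and no doublet caller was run. UMIs were summed by library, and by library and gate. Libraries were compared by CPM, with exact Poisson 95% intervals, and by the log2 fold of CPM + 1 over genes with a mean of at least 5 CPM; a difference of 0.32 was counted and not tested. Gates were compared with edgeR 4.0.16 (R 4.3.3, TMM, quasi-likelihood, library as block), and shares by an exact sign-flip permutation test. The block pairs gates of 1 library, which share its mice and preparation. In simulated counts of the effector-rule contrast over 9999 genes the test called 99% of genes altered by 1 log2 unit, 56% at 0.5 and 0.0612% of unaltered genes. The simulation had a single fixed spread, no effect of library and alterations only in genes of higher counts. Shifts smaller than 0.5, such as those of the members in this contrast, were not simulated. Lengths came from GENCODE M21.

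The members, gates and lists were chosen with earlier results of these data known. The genes named were the 4 largest in each direction of each comparison at 50 CPM or more, members with a second copy and the shortest transcripts; Rps27a, Rps3, Rpl27 and others named with a count were chosen after their values were seen. A few genes that the rule names are not reported here. Alternatives were other scalings, DESeq2 1.42.0, filters, pseudocounts, depth bands, gates and left-out libraries.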

Additional observations from a re-analysis of the deposited data

Results flagged for a closer look

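The ribosomal share moved with doxorubicin in one direction in 4 gates and in the other in Foxp3-positive cells. In the WT libraries it was 0.235 percentage points higher with doxorubicin in naive CD4 cells and differed by -0.762 points in Foxp3-positive cells. In the KO libraries the differences were 0.622 and -1.15 points. The difference between the gates was not tested, with 1 library in a group. Foxp3-positive cells of 2000 to 4000 UMIs gave 0.496 in WT and -2.85 in KO, and the strict gates gave -1.32 and 0.248. The strict gates also turned the difference in naive CD4 cells of the WT libraries, to -0.277, while the depth band gave 0.323 there.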

How the results depend on the processing

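Both doxorubicin libraries kept the higher share under every alternative. In the order WT-CTRL, WT-DOX, then KO-CTRL, KO-DOX, the shares were 27.64%, 28.81%, 27.41% and 28.25% with a stricter cell filter, 27.04%, 28.08%, 26.98% and 27.33% with each cell weighted alike, 25.002%, 25.94%, 25.36% and 25.98% with gates weighted alike, 28.1%, 28.94%, 27.9% and 28.77% in cells of 2000 to 4000 UMIs, and 27.86%, 28.92%, 27.66% and 28.4% without the cells of most UMIs. With gates weighted alike, 1 member was higher in KO-DOX than in KO-CTRL and 2 than in WT-DOX, and 2 than in WT-DOX in the depth band. The shares over all genes at these settings are not reported here, so the counts cannot be set against them. In sums over all T cells no member was higher in either comparison, against 0.926% and 3.54% of all genes.

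Higher members between effector-rule and naive CD8 cells numbered 30 by total scaling, 2 in the depth band, 25 with no replicate block, which drops the pairing of gates by library, and 43 to 65 without 1 library. Of all genes 4.83% were higher by total scaling, 2.60% in the depth band, 4.71% with no replicate block and 5.65% to 6.50% without 1 library. Between naive CD8 and naive CD4 cells they numbered 49 with UMIs outside the members as library size, 46 by DESeq2, 8 with no replicate block, 75 (and 1 lower) with the 2 gates alone, 46 without the cells of most UMIs, 53 with strict gates, 15 with the Ccl5 gate in the depth band and 11 to 42 without 1 library. In the same order, 11.2%, 9.22%, 7.75%, 14.1%, 11.1%, 6.90%, 12.7% and 7.58% to 8.97% of all genes were higher. In Foxp3-positive cells 0 were higher in the depth band, with either effector gate, against 11.0% and 15.8% of all genes. In cycling cells 0 were higher there with either gate, against 4.57% and 5.79% of all genes, and 2 without the cells of most UMIs, against 23.5%.

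The sign turned in 12 values of named members. Against naive CD8 cells, the Ccl5 gate in the depth band gave -0.086 for Rpl10 and -0.13 for Rpl3. In cycling cells, the depth band, the Ccl5 gate with it, and the fit without the cells of most UMIs gave -0.37, -0.22 and -0.12 for Rpl22l1, -0.50, -0.24 and -0.25 for Rpl3, and -0.48, -0.37 and -0.050 for Rps12. The depth band gave -0.043 for Rps19bp1. The cause was not tested. No library can be left out of a comparison of 1 library with 1 other.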
